A study of Mus musculus with 2 samples.

Results

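A set of 33 genes of autophagy and organelle clearance was followed in single-cell RNA counts of the neonatal mouse lens epithelium. The genes were taken by symbol from the 32285 genes of the count tables and comprise receptors of mitophagy, core autophagy factors, cargo receptors, the regulator Tfeb, the transport adaptor Fyco1 and the fiber cell nuclease Dnase2b. Of the 33, 32 had enough counts to be tested, and Dnase2b did not. Both samples came from the same condition: lens epithelium of wild-type C57BL/6N pups at postnatal day 2 (P2), each a pool of lenses from 4 to 8 pups. The capsule with its adherent epithelium was peeled from the fiber cell mass before dissociation, and that mass was not collected. Within these pools the question was how the genes changed as lens cells took on crystallin expression, and n = 2 pools throughout.

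Autophagy encloses cytoplasm or whole organelles in a double membrane, the autophagosome, which then fuses with the lysosome. The Ulk kinase complex starts the membrane, the Pik3c3 lipid kinase complex marks it with a phospholipid that Wipi proteins bind, and a conjugation cascade attaches small ubiquitin-like proteins of the ATG8 family to it. Cargo receptors bind both the cargo and the ATG8 proteins, and mitophagy is the form that removes mitochondria. In the lens the subject has a particular setting, since epithelial cells at the equator become fiber cells that fill with crystallins and lose their nuclei, mitochondria and endoplasmic reticulum, while Dnase2b degrades the DNA of the dying nuclei.

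Promoter windows show which of the genes carry recognition letters of factors known in these settings. RefSeq windows (GRCm38.p6, the 250 bases before an annotated start) matched 26 of the 33 genes. The letters CACGTG, a palindromic E-box that Tfeb and related factors bind, occurred in the windows of 4 of the 26 genes (Atg3, Atg5, Atg7 and Bnip3), against 6.02% of all 32851 windows and 6.86% of all gene symbols. The Atg7 window lay wholly inside the gene as GENCODE vM21 places it, so its match was not upstream of that gene. The letters GAANNTTC, a palindrome of heat shock factor elements, occurred in 2 of 26 (Dnase2b and Fyco1), against 6.69% of windows and 7.73% of symbols. The Fyco1 match lay in bases that GENCODE vM21 places inside the gene. Its other window, which lay before the gene, had no match. On both strands, GTAAACA, a forkhead sequence, and TGCTGAC, part of the Maf recognition sequence, were found in 0 of the 26 genes, against 3.17% and 3.81% of windows. No matches overlapped in the windows printed here. These are matches of letters only. The windows of 3 genes with CACGTG and of Dnase2b are printed below 5′ to 3′ on the strand of the gene, without the bases that GENCODE vM21 places inside the gene (13 for Bnip3 and 44 for Atg3), with the matching letters in capitals. They lie at chr7:138909520-138909756 on the minus strand, chr16:45158579-45158784 on the plus strand, chr10:44268089-44268338 on the plus strand and chr3:146615599-146615848 on the minus strand. Counted back from the RefSeq start, the match began at base -108 in Bnip3, at -94 and -71 in Atg3, at -14 in Atg5 and at -230 in Dnase2b.
Bnip3: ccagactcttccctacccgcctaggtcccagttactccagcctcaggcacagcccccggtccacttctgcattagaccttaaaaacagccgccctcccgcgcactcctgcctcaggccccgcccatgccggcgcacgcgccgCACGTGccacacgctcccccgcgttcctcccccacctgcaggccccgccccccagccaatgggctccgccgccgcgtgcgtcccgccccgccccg
Atg3: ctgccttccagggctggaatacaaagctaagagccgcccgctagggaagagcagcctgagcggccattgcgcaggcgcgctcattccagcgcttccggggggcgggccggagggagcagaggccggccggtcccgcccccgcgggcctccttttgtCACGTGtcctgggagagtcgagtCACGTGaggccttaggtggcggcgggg
Atg5: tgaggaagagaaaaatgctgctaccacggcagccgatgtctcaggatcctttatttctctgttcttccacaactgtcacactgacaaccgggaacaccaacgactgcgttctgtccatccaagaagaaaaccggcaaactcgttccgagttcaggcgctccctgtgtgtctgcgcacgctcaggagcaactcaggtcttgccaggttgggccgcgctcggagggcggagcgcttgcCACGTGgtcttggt
Dnase2b: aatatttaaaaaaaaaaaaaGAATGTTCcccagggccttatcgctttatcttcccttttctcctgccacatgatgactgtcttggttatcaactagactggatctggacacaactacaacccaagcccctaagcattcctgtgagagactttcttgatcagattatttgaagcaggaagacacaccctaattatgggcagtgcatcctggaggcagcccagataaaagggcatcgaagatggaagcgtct

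The tables held 12314 barcodes with 93839132 unique molecular identifiers (UMIs, each counted as 1 transcript) in pool 1 and 9425 barcodes with 86033032 UMIs in pool 2, with medians of 6307 and 8050 UMIs per barcode. The pools shared 27 barcode sequences. Lens barcodes were those with at least 1% of UMIs from the alpha crystallins Cryaa and Cryab and almost none from vessel, macrophage or red cell markers; there were 11220 and 8359 of them, 19579 of 21739 in all, including 525 above 20198 UMIs (the 97th percentile). They were ordered by the share of 3 beta crystallin genes, Cryba2, Cryba4 and Crybb1, in their UMIs and divided into 6 groups at the 50th, 75th, 90th, 95th and 99th percentiles. The group below the 50th percentile held 5400 and 4388 barcodes with shares up to 0.0370%, and its medians of 0.0173% and 0.0159% were no higher than those of vessel barcodes (0.0175% and 0.0230%). The group between the 90th and 95th percentiles held 522 and 457 barcodes with shares of 1.78% to 3.20%, and the top 1% held 120 and 76 barcodes above 7.74%. These 3 groups are called the low, middle and top group here. Of 15 tested fiber cell markers 14 were higher in the top than in the low group, with the largest changes in the gamma crystallin genes Crygb (3.69 and 4.22 to 1407 and 1325 CPM) and Cryge (72.1 and 71.5 to 19580.4 and 19620.0 CPM). Of 8 epithelial markers 8 were lower, among them Igfbp5 (268 and 191 to 16.1 and 8.32 CPM) and the transcription factor gene Foxe3 (3.38 and 4.83 CPM to no UMI). CPM, given for pool 1 and then pool 2, are a gene's UMIs brought to a common library size with the TMM factors of edgeR. Because the order itself comes from measured crystallin counts, many genes change along it, and the share of all genes that did the same is the background for the counts of autophagy genes below.

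Most of the genes changed along the order, and mainly upward. Between the low and the top group, 19 of the 32 tested genes were higher, 1 (Atg13) was lower and 12 did not pass edgeR's quasi-likelihood test at an adjusted p of 0.05 over all 12754 genes tested. Of all genes, 44.5% passed in either direction, 21.6% upward and 22.9% downward. The median log2 fold change was 0.64 for the 32 genes and -0.16 for all genes. The larger part of the change came early: between the low and the middle group 23 were higher and 2 (Ulk1 and Atg13) lower, against 32.4% and 32.6% of all genes, with 64.9% passing in either direction and medians of 0.58 and -0.02. Between the middle and the top group 7 were higher (Bnip3l, Wipi1, Wipi2, Atg7, Map1lc3b, Gabarap and Gabarapl2) and 3 lower (Atg13, Map1lc3a and Sqstm1), against 9.17% and 7.06% of all genes, with 16.2% passing in either direction and medians of 0.21 and -0.12.

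**Figure D1:**
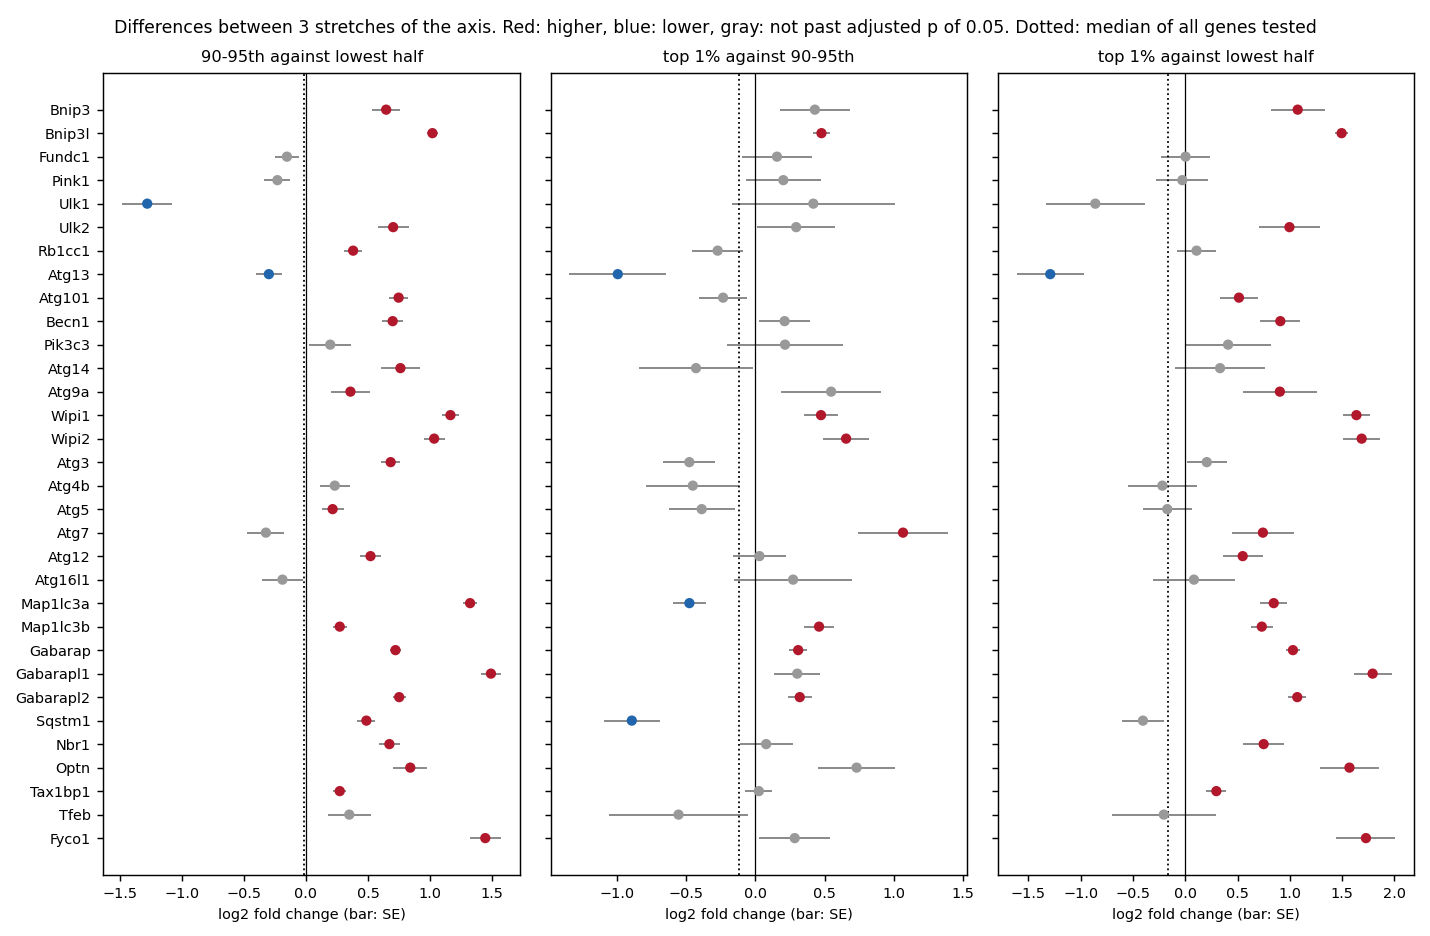
Log2 fold change of 32 autophagy genes between the middle and low, top and middle, and top and low groups of lens barcodes; bars are standard errors of the edgeR fit over 2 pools, red and blue points passed upward and downward, gray points did not pass, and the dotted line is the median of all 12754 genes. From the top against the low group, 19 points are red and only Atg13 is blue.

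These directions depend on the scale, because all alpha, beta and gamma crystallins together took 7.18% and 6.97% of UMIs in the low group, 26.2% and 25.6% in the middle and 51.8% and 52.1% in the top group, and a larger share for them leaves less for every other gene. The values above are scaled by edgeR's TMM factors, which offset such a change in composition. Scaled to the total of all UMIs but those of crystallins, 12 genes were higher and 4 lower in the top than in the low group. The counts were 18 and 6 in the middle against the low group, and 1 and 4 in the top against the middle group. Of all genes 13.9%, 22.6% and 5.65% were higher in these comparisons. Counts of all genes lower are given with the processing below, but not from low to middle, so the 6 lower there lack a background. Scaled to all UMIs without TMM factors, 4 genes were higher and 20 lower from low to top (5.37% and 73.2% of all genes), 12 and 10 from low to middle (12.7% and 63.7%), and 0 and 19 from middle to top (1.54% and 48.3%). The median of all genes in the top against the low group moved from -0.16 to -0.56 and -1.37 under these scalings. In the top and in the middle group against the low group 26 of 32 genes lay above the median of all genes, and 22 of 32 in the top against the middle group. A scaling shifts every gene and the median by nearly the same amount, so these counts hardly depend on it and are no check of the directions.

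**Figure D2:**
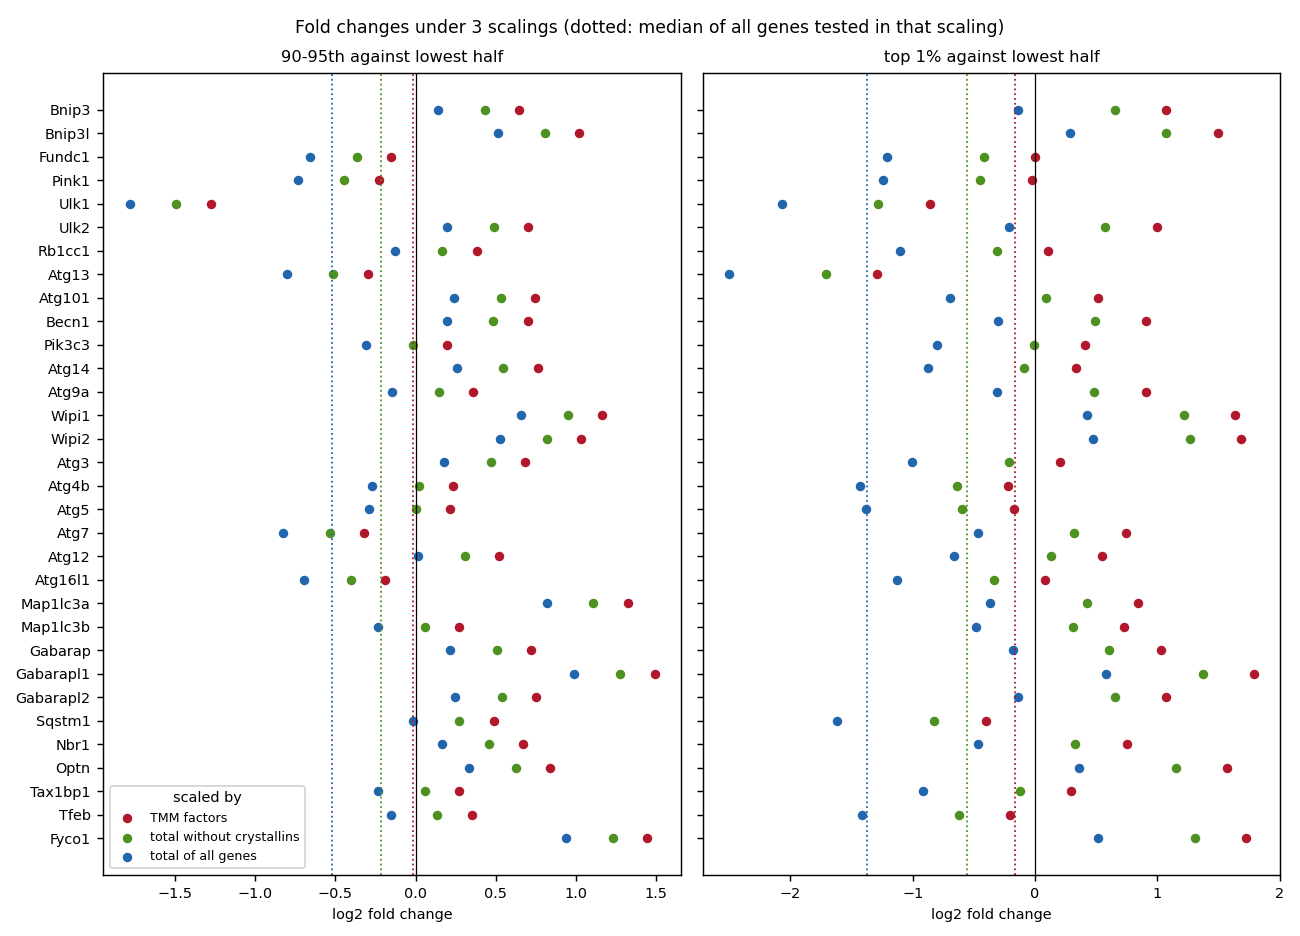
Log2 fold change of each gene in the middle and top groups against the low group under TMM factors, totals without crystallins and totals of all genes; dotted lines mark the median of all genes under each. Points of a gene shift together with the dotted lines, since a scaling moves all genes nearly alike, and 26 of 32 lie to the right of the line of their own color.

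Counted per barcode, with no scaling, the rise from the low to the middle group was also seen. Mean UMIs per barcode were higher in both pools for 31 of 32 genes, against 59.5% of all genes, and the middle group also held more UMIs outside crystallins (10202 and 11038 per barcode against 6296 and 7974). In the top group 20 of 32 were higher than in the low group in both pools, against 25.9% of all genes. Of the rest, 7 were lower in both and 5 differed between the pools, while 6666 of all 12754 genes were lower in both. The group between the 95th and 99th percentiles held the most UMIs outside crystallins (11104 and 12448 per barcode). Against it, 0 of 32 were higher in the top group in both pools and 26 were lower in both. Of all 12754 genes, 2.67% were higher and 9840 were lower in both. Against the middle group too 0 were higher in both pools and 22 were lower in both. There 5.29% of all 12754 genes were higher and 8805 were lower in both. Fewer UMIs per barcode in the top group than in these groups were thus common to most genes tested. The top group held 6488 and 10291 UMIs per barcode outside crystallins. Bnip3l thus went from 2.52 and 2.81 UMIs per barcode in the low group to 6.77 and 7.16 in the middle, 8.41 and 9.51 in the 95th to 99th percentile, and 5.38 and 7.76 in the top group.

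Among the mitophagy genes, the 2 related receptors of the outer mitochondrial membrane, Bnip3 and Bnip3l, were higher along the order, and Fundc1 and Pink1 did not pass in any of the 3 comparisons. Bnip3l (ENSMUSG00000022051, chr14:66985239-67008877), which is known to remove mitochondria from maturing red cells and lens fibers, had 267 and 245 CPM in the low group, 513 and 523 in the middle and 742 and 701 in the top group. The pools agreed within each group and the 3 groups did not overlap. Its log2 fold change was 1.49 ± 0.06 (SE, adjusted p = 8.72e-22) from low to top, of which 0.48 ± 0.06 (adjusted p = 6.91e-08) fell between the middle and the top group. Scaled to all UMIs, that last step was -0.23, and per barcode it was downward in pool 1. Bnip3 (ENSMUSG00000078566, chr7:138890836-138909519), a hypoxia-inducible relative with CACGTG in its window above, had 13.7 and 13.5 CPM in the low group, 17.7 and 25.1 in the middle and 26.5 and 30.9 in the top group. The low values lay under all others, and the log2 fold change from low to top was 1.07 ± 0.26 (adjusted p = 0.000754). Fundc1, another receptor of mitophagy, ranged from 18.2 to 21.4 CPM over the low, middle and top groups, and Pink1, the kinase that marks damaged mitochondria, from 15.7 to 19.6.

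The share of mitochondrial transcripts in all UMIs, which is not a measure of mitophagy but concerns the same organelle, was lower at the later end of the order. It went from 5.40% and 5.22% of UMIs in the low group to 3.58% and 3.57% in the middle and 2.64% and 2.50% in the top group, a difference between top and low of -2.74 ± 0.0261 percentage points (SD, n = 2 pools). Crystallins enter that denominator, and how much of the fall they account for was not tested. UMIs outside crystallins numbered 6296 and 7974 per barcode in the low and 10202 and 11038 in the middle group. They numbered 11104 and 12448 in the 95th to 99th percentile and 6488 and 10291 in the top group. Per barcode, mitochondrial UMIs numbered 366 and 447 in the low group, 495 and 529 in the middle, 500.0 and 577 in the 95th to 99th percentile and 356 and 536 in the top group, so that on this scale the top group lay below the group before it in both pools and below the low group in pool 1 alone.

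**Figure D3:**
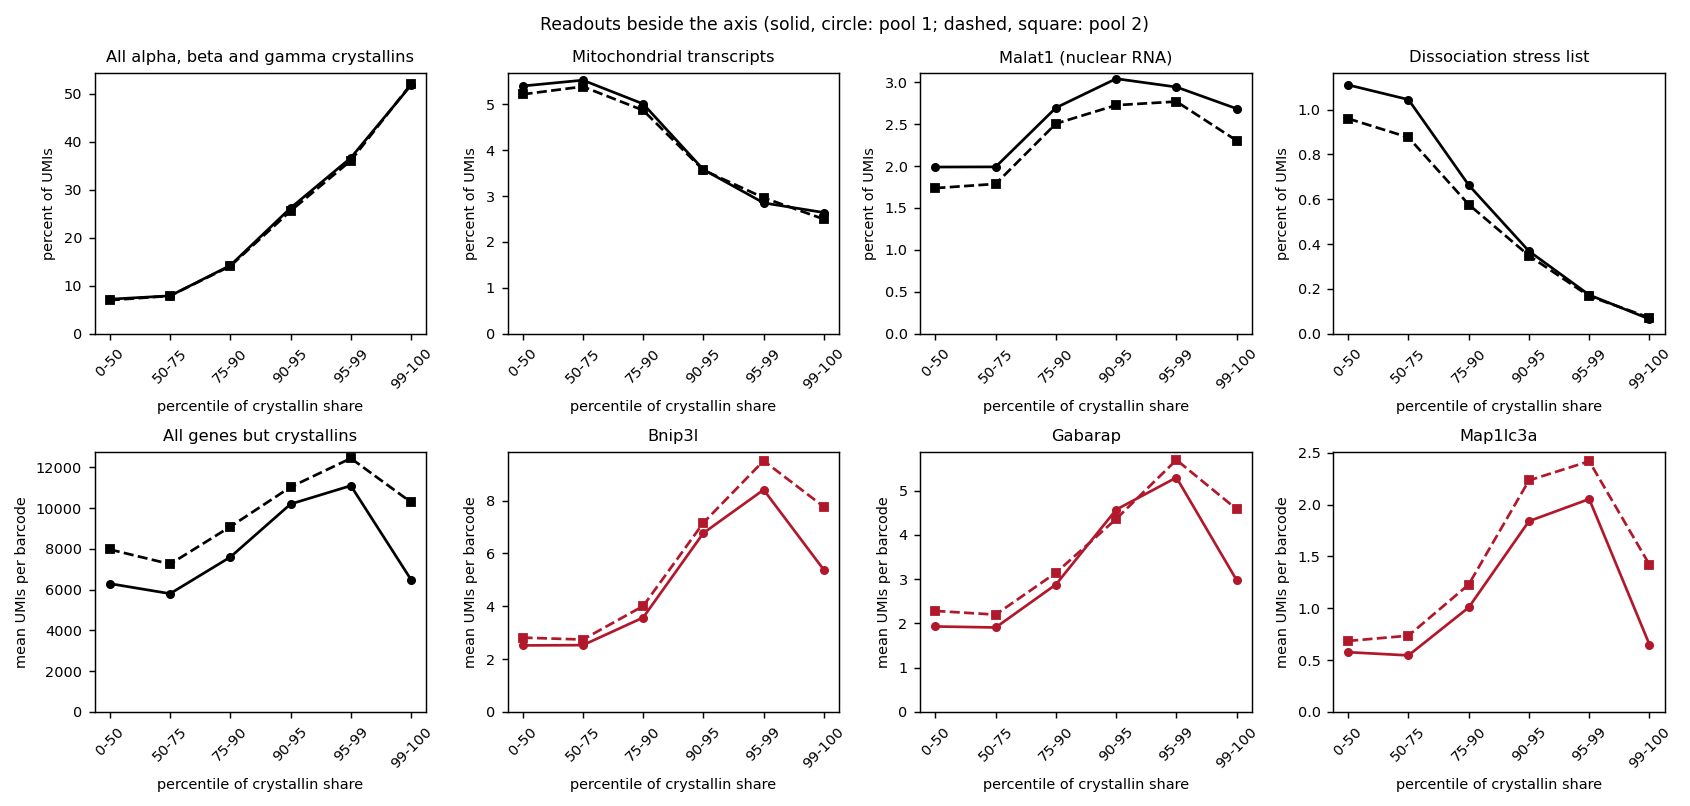
Readouts in the 6 groups along the order, pools as solid and dashed lines: shares of UMIs of crystallins, mitochondrial transcripts, Malat1 and a dissociation stress list in the upper row, and mean UMIs per barcode of all genes but crystallins, Bnip3l, Gabarap and Map1lc3a in the lower row. UMIs per barcode peak between the 95th and 99th percentiles, at 8.41 and 9.51 for Bnip3l, and are lower in the top 1%.

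In the initiation complex, Ulk2 and Atg101 were higher and Atg13 lower in the top than in the low group, while Ulk1 and Rb1cc1 did not pass. Top-group values of Ulk2 rest on 16 and 18 UMIs. Atg13 (ENSMUSG00000027244, chr2:91674618-91710576), the regulatory subunit that links the Ulk kinases to the complex, had 21.3 and 18.7 CPM in the low, 16.0 and 16.6 in the middle and 8.05 and 8.32 in the top group. On this scale every step was downward in both pools and the groups did not overlap, with a log2 fold change of -1.29 ± 0.32 (adjusted p = 0.00118). The top-group values of Atg13 rest on 7 UMIs in each pool. Per barcode, Atg13 had 0.201 and 0.215 UMIs in the low and 0.211 and 0.228 in the middle group, slightly more in both pools. In the top group it had 0.0583 and 0.0921. Its last step passed narrowly (adjusted p = 0.0467) and did not pass under 8 of the alternative settings. The sister kinases went apart early: from low to middle, Ulk1 fell by 1.28 ± 0.20 on the log2 scale (adjusted p = 1.06e-06), and Ulk2 rose by 0.70 ± 0.12 (adjusted p = 8.11e-06). Whether the kinases differ from each other was not tested. Ulk1 stood at 2.30 and 7.13 CPM in the top group, values that rest on only 2 and 6 UMIs. Atg101, the small partner of Atg13, rose by 0.75 ± 0.07 from low to middle (adjusted p = 5.50e-11), and Rb1cc1, the scaffold of the complex, by 0.38 ± 0.07 (adjusted p = 3.66e-05), and neither passed between the middle and the top group.

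Among the genes of nucleation and membrane supply, 4 of 6 were higher in the top than in the low group (21.6% of all genes were), led by the phospholipid-binding proteins Wipi1 and Wipi2. Wipi1 (ENSMUSG00000041895, chr11:109573331-109611967) had 38.8 and 36.7 CPM in the low, 86.7 and 82.4 in the middle and 105 and 131 in the top group, without overlap. The fold change from low to top was 3.11 (log2 1.64 ± 0.13, adjusted p = 5.18e-13). Wipi2 (ENSMUSG00000029578, chr5:142627698-142670588), which recruits the conjugation complex to the membrane, had 20.0 and 18.5 CPM in the low, 41.7 and 37.0 in the middle and 57.5 and 66.5 in the top group. The groups again did not overlap, and the fold change was 3.22 (log2 1.69 ± 0.17, adjusted p = 3.16e-10). Per barcode, both genes were higher in the top than in the low group in both pools. Becn1, a subunit of the lipid kinase complex (log2 0.91 ± 0.19), and Atg9a, the membrane protein of the supplying vesicles (0.90 ± 0.35), also passed from low to top. For Atg9a the adjusted p of the edgeR test was 0.0365, and the top values rest on 10 UMIs in each pool. Atg14, which directs the complex to autophagy, passed only from low to middle (0.76 ± 0.15), and the catalytic subunit Pik3c3 passed in none of the 3 comparisons, with 5.63 to 9.20 CPM over the low, middle and top groups.

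Of the conjugation cascade, 2 of 6 genes were higher from low to top (21.6% of all genes were), Atg12 (log2 0.55 ± 0.19), the ubiquitin-like protein joined to Atg5, and Atg7 (0.74 ± 0.30), the E1-like enzyme that activates it. Atg7 was the 1 member of the cascade to pass from middle to top, by 1.06 ± 0.33 (adjusted p = 0.0197), from 8.86 and 8.48 CPM to 16.1 and 20.2. These top values rest on 14 and 17 UMIs. Per barcode, Atg7 stayed at 0.117 UMIs from middle to top in pool 1 and went from 0.116 to 0.224 in pool 2. With the top 5% in place of the top 1%, its log2 fold change against the low group was -0.0041, so that the rise was seen in the last 1% of barcodes and not in the last 5%. Atg3, the E2-like enzyme of the ATG8 proteins and the gene with 2 CACGTG matches, rose from low to middle by 0.68 ± 0.07 (adjusted p = 5.11e-10) but stood at 29.9 and 40.4 CPM in the top group against 28.8 and 32.1 in the low group. Atg5 passed from low to middle by 0.21 ± 0.09. The protease Atg4b and the scaffold Atg16l1 did not pass in any of the 3 comparisons. Atg16l1 stood at 4.60 and 11.9 CPM in the top group, values that rest on only 4 and 10 UMIs.

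The ATG8 family was the one group of which every member, 5 of 5, was higher in both the middle and the top group than in the low group, where 32.4% and 21.6% of all genes were higher. Gabarapl1 (ENSMUSG00000030161, chr6:129533160-129542346) had 15.6 and 14.5 CPM in the low, 45.3 and 38.9 in the middle and 56.4 and 47.5 in the top group. Its fold change from low to top, 3.46 (log2 1.79 ± 0.18, adjusted p = 1.76e-10), was the largest of the 32 genes, and most of it lay before the middle group. Gabarap (ENSMUSG00000018567, chr11:69991143-69994951) had 205 and 199 CPM in the low, 347 and 319 in the middle and 411 and 413 in the top group. Gabarapl2 (ENSMUSG00000031950, chr8:111940703-111953612) had 93.9 and 98.1, then 154 and 169, and then 197 and 207 CPM. For both, the 3 groups did not overlap, and the log2 fold changes from low to top were 1.03 ± 0.06 (adjusted p = 5.65e-16) and 1.07 ± 0.09 (adjusted p = 1.20e-12).

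The LC3 genes of this family, whose lipid-bound proteins are the usual marker of autophagosomes, took different courses late in the order. Map1lc3b (ENSMUSG00000031812, chr8:121590361-121598760) had 85.8 and 87.4 CPM in the low, 100.4 and 109 in the middle and 138 and 150 in the top group. It passed upward at each step, by 0.27 ± 0.06 (adjusted p = 9.61e-05) and then by 0.46 ± 0.11 (adjusted p = 0.00167). Map1lc3a (ENSMUSG00000027602, chr2:155276297-155278073) had 61.1 and 59.8 CPM in the low, 140 and 163 in the middle and 89.7 and 128 in the top group. It rose by 1.32 ± 0.06 (adjusted p = 2.73e-20) and then fell by 0.48 ± 0.12 (adjusted p = 0.00346), with both top values under both middle values and above both low values. Between the 95th and 99th percentiles it stood at 153 and 164 CPM, and with the top 5% in place of the top 1% the last step was 0.033 (adjusted p = 0.801), so that the fall was seen in the last 1% of barcodes and not in the last 5%. The difference between the courses of the LC3 genes was not itself tested.

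**Figure D4:**
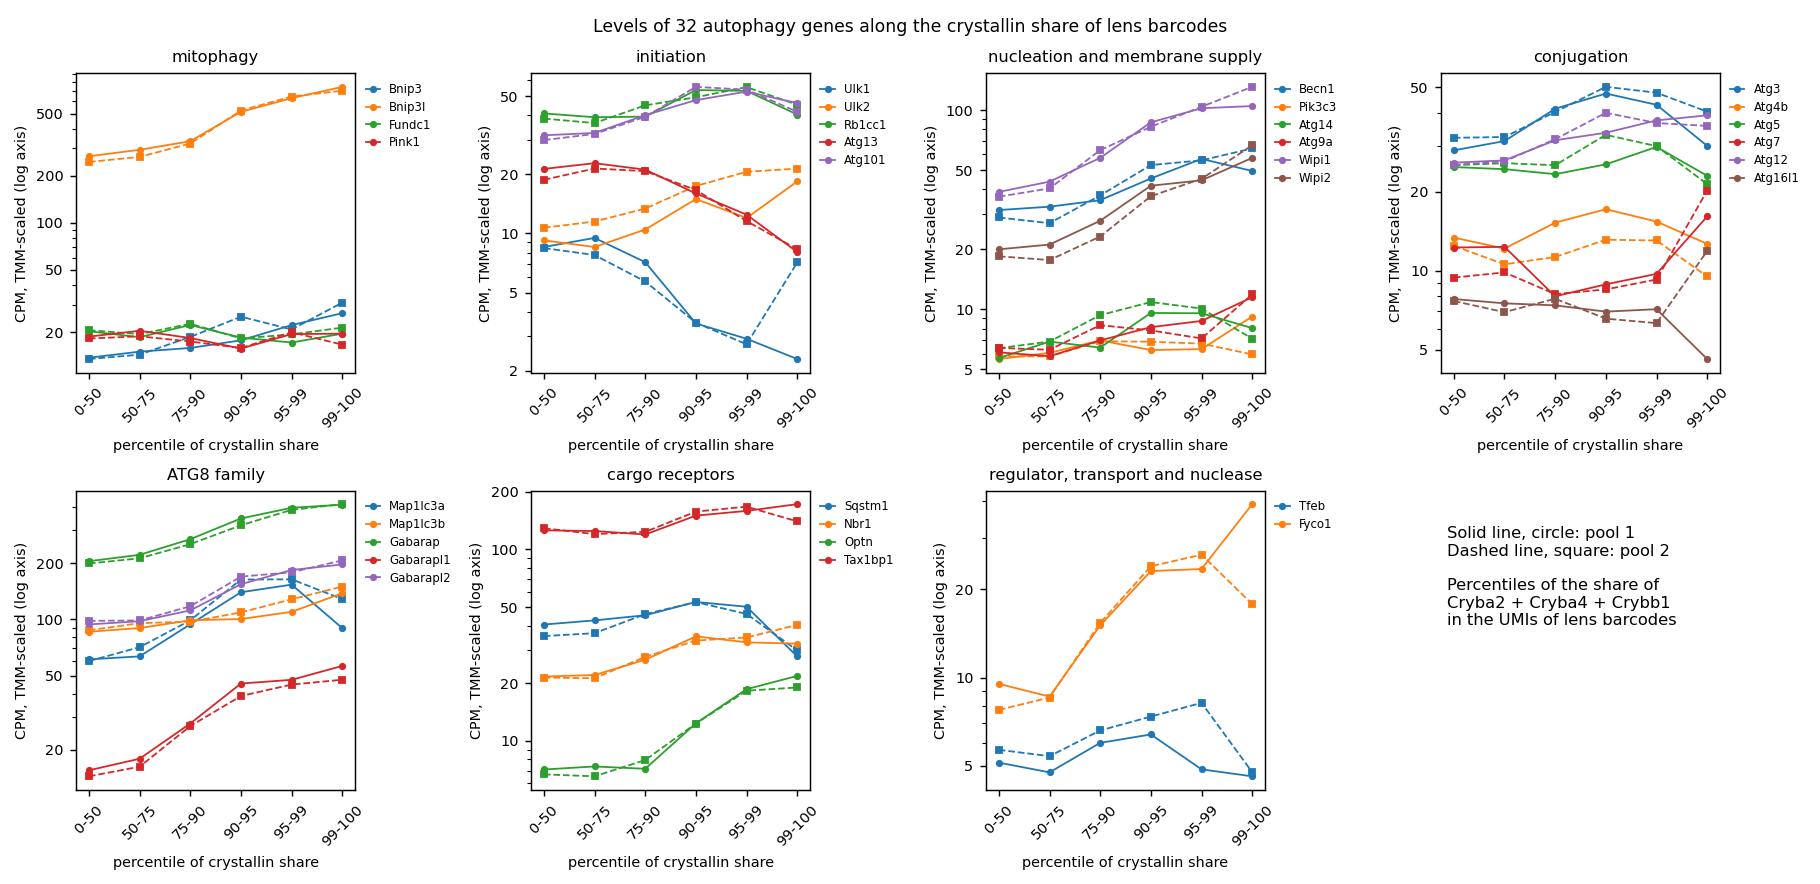
TMM-scaled CPM (log axes) of the 32 tested genes in the 6 groups along the crystallin order, by role; pool 1 is solid with circles and pool 2 dashed with squares. Bnip3l, Wipi1, Wipi2 and the ATG8 genes climb to the middle group in both pools, Atg13 descends, and Fyco1, Ulk1 and Atg16l1 part between the pools in the top 1% (39.1 and 17.8 CPM for Fyco1).

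Of the cargo receptors, Nbr1, Optn and Tax1bp1 were higher and Sqstm1 was not in the top than in the low group. Optn (ENSMUSG00000026672, chr2:5020642-5064051) is a receptor of ubiquitin-tagged mitochondria and bacteria. It had 7.09 and 6.68 CPM in the low, 12.4 and 12.3 in the middle and 21.9 and 19.0 in the top group. The log2 fold change from low to top was 1.57 ± 0.28 (adjusted p = 2.01e-05) with no overlap of groups. Its top values rest on 19 and 16 UMIs. Sqstm1 (ENSMUSG00000015837, chr11:50199366-50210827), the receptor p62 that collects ubiquitin-tagged protein and is itself degraded with it, had 40.5 and 35.3 CPM in the low, 53.2 and 53.1 in the middle and 27.6 and 29.7 in the top group. It rose by 0.49 ± 0.07 (adjusted p = 3.91e-07) and then fell by 0.89 ± 0.20 (adjusted p = 0.00120), which left the top values under the low ones without passing against them (adjusted p = 0.108). With the top 5% in place of the top 1% the last step was -0.20 (adjusted p = 0.164), and the change from the low group was 0.29 (adjusted p = 0.00164). Nbr1, its relative, rose by 0.67 ± 0.08 and Tax1bp1 by 0.27 ± 0.05 from low to middle, and neither passed from middle to top.

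Fyco1 and Dnase2b are genes with a known place in the lens. Fyco1 (ENSMUSG00000025241, chr9:123789500-123851899), which ties autophagosomes to kinesin for transport and is mutated in an inherited cataract, had 9.52 and 7.75 CPM in the low, 23.1 and 24.0 in the middle and 39.1 and 17.8 in the top group. All later values exceeded the low ones, but the pools parted in the top group, and the log2 fold change from low to top of 1.73 ± 0.28 (adjusted p = 3.74e-06) was 2.04 in pool 1 alone and 1.19 in pool 2 alone. From low to middle it was 1.44 ± 0.12 (adjusted p = 1.67e-12), and 1.28 and 1.61 in the pools alone. Tfeb, the transcription factor of lysosome and autophagy genes, did not pass in any of the 3 comparisons, at 4.60 to 7.36 CPM over the low, middle and top groups. Dnase2b (ENSMUSG00000028185, chr3:146580985-146615596) had 0 UMIs in all barcodes of both pools. Over the 167804646 UMIs of lens barcodes a count of 0 allows a level of up to 0.0179 CPM (3 counts), and over the 3247828 UMIs of the top group up to 0.924 CPM. These limits cover counting error only, and no fold change can be given for it.

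Fewer of the late changes passed without the barcodes above 20198 UMIs, which an upper limit would remove. These were 51 of 9788 barcodes in the low group, 93 of 979 in the middle, 221 of 783 in the 95th to 99th percentile and 50 of 196 in the top group, where they supplied 60.4% of the UMIs. Without them 10 genes instead of 19 were higher in the top than in the low group (13.7% of all genes instead of 21.6%), and 1 instead of 7 in the top than in the middle group (4.53% of all genes). From low to middle 22 were higher (31.4%). Fewer barcodes and UMIs enter the top group in that fit. With each barcode thinned to 3000 UMIs, 8 genes were higher from low to top (9.92% of all genes), 18 from low to middle (23.2%) and 1 from middle to top (2.33%). Inside the top group, in CPM of the UMIs other than crystallins, Gabarap had 506 and 509 in the barcodes above the limit and 410 and 294 in the 95 and 51 at or below it. Map1lc3a had 127 and 159 above and 72.6 and 89.6 at or below, while Bnip3l had 845 and 745 above and 812 and 777 at or below. For Gabarap and Map1lc3a the values above the limit were thus the higher in both pools, and for Bnip3l the pools overlapped. In pool 1, low-group barcodes at or below the limit had 91.5 for Map1lc3a, more than the 72.6 of the top group. In pool 2 the top group was the higher of these. Among barcodes at or below the limit, the rise of Map1lc3a from low to top was thus not seen in both pools. Of the 8% of barcodes with the highest doublet scores, 0 were in the top group.

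Other readouts moved along with the order, and their part in these results was not tested. A list of 10 dissociation stress genes, 8 of them lower from low to top, went from 1.11% and 0.960% of UMIs in the low to 0.368% and 0.348% in the middle and 0.0648% and 0.0712% in the top group, and a list of 16 cell cycle genes, all 16 lower, from 0.273% and 0.331% to 0.0246% and 0.0122% and then 0.00247% and 0.00313%. Among those that fell were Fosb (586 and 418 to 38.0 and 30.9 CPM) and Hspa1b (2.61 and 3.08 CPM to no UMI) in the first list and Ccnb1 (49.3 and 47.1 CPM to no UMI) and Pclaf (208 and 246 to 1.15 and 0 CPM) in the second. Among barcodes with at most 0.3% of stress UMIs, 17 of the 32 genes were higher from low to top (22.1% of all genes). That limit kept only 224 of 5400 and 543 of 4388 low-group barcodes, but 118 of 120 and 75 of 76 in the top group. It thus compares the top group with a small part of the low group. Without barcodes over 0.1% of cell cycle UMIs the count was also 17 (21.2%). The nuclear RNA Malat1 made up 1.99% and 1.74% of UMIs in the low and 3.04% and 2.73% in the middle group. In the top group it made up 2.68% and 2.30%. Its UMIs per barcode numbered 135 and 149 in the low, 421 and 404 in the middle and 362 and 494 in the top group. Medians of its share per barcode were 1.88% and 1.68% in the low, 3.19% and 2.72% in the middle and 0.839% and 1.29% in the top group. Only by these medians did the top group lie below the low group. Endothelial markers made up at most 0.00787% of UMIs in the low and 0.00365% in the top group, mural markers 0.00489% and 0.000429%, macrophage markers 0.00485% and 0.000309%, and fibroblast markers were at 0 in the top group. None of 5 tested endothelial, 4 erythroid, 1 fibroblast and 2 pigment cell markers passed from low to top. The rule for lens barcodes itself capped endothelial, mural, macrophage and erythroid markers, so the low shares of these cannot show that such cells were absent. Of 5 mural markers 2 were lower (Notch3, 26.2 and 28.5 to 1.15 and 1.19 CPM, and Pdgfrb, 2.65 and 2.90 CPM to no UMI), of 2 macrophage markers 1 was lower (Apoe, 22.6 and 34.5 to 4.60 and 5.94 CPM), and the 1 tested retina or neuron marker, Tubb3, was higher (0.0589 and 0 to 4.60 and 2.38 CPM).

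Beyond the 33 genes, the wider pathway was described by further lists, to be read against the 21.6% of all genes that were higher and the 22.9% that were lower from low to top. Of 24 other genes of the autophagy machinery, 11 were higher and 3 lower in the middle than in the low group (32.4% and 32.6% of all genes). In the top group 3 were higher and 2 lower than in the low group, both smaller shares than those of all genes, with a median log2 fold change of 0.11. The vesicle fusion gene Ykt6 went from 14.9 and 17.4 to 33.4 and 44.0 CPM and the protease gene Atg4c from 4.26 and 3.88 to 9.20 and 7.13. In the other direction, Vamp8, another fusion gene, went from 36.1 and 41.1 to 17.3 and 17.8 CPM, and Ambra1, a regulator of Becn1, from 6.07 and 5.49 to 2.30 and 1.19. Of 16 other selective receptors 7 were higher and 2 lower from low to top (median 0.24). The rises were led by the receptors of the endoplasmic reticulum Ccpg1, from 11.1 and 11.2 to 40.3 and 34.5 CPM, and Tex264, from 22.8 and 20.4 to 55.2 and 44.0. Retreg1, another receptor of that organelle, fell from 64.1 and 57.5 to 31.1 and 17.8 CPM, and Stbd1, a glycogen receptor, had 4.24 and 4.14 CPM in the low group and no UMI in the top group.

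Regulators, lysosome genes and other genes of organelle loss were mixed. Of 14 regulators 3 were higher and 2 lower from low to top (median 0.17). Tsc2 (12.2 and 12.2 to 52.9 and 49.9 CPM), which restrains mTOR, and Rraga (56.8 and 57.1 to 138 and 144 CPM), which activates it at the lysosome, were both higher, and the transcription factor genes Hif1a (392 and 418 to 88.6 and 119 CPM) and Foxo1 (38.5 and 31.2 to 8.05 and 4.75 CPM) were both lower. Of 22 lysosome genes 8 were higher and 6 lower (median 0.20). The calcium channel gene Mcoln1 was higher (3.55 and 3.40 to 14.95 and 9.50 CPM), and the largest decreases were those of the cholesterol exporter Npc1 (10.4 and 10.3 to 3.45 and 3.56 CPM) and the protease gene Ctsb (105 and 100.5 to 55.2 and 41.6 CPM). Of 9 tested genes of lens organelle loss 4 were higher and 2 lower. Hsf4, the heat shock factor of lens fibers, went from 0.314 and 0.219 CPM in the low to 34.1 and 26.9 in the middle and 98.9 and 90.3 in the top group, and Tdrd7, an RNA granule gene of fibers, from 14.6 and 14.9 to 82.1 and 84.6 and then 256 and 245. The caspase gene Casp6 fell (log2 fold change -2.55 ± 0.51). The median of the 9 was -0.50, or 0.35 with the 1 gene that had no UMI in the top group set to its limit of 3 counts, which lies above its level in the low group.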

How the data were processed

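Droplet RNA libraries (10x Genomics 3′ v3.1) of both pools were deposited by the authors as raw UMI counts per gene and barcode from Cell Ranger 6.1.1 on mm10, not normalized, in tables of barcodes called as cells. Gene positions were taken from GENCODE vM21. Barcodes were kept whose genes and UMIs reached the 2nd percentile of all barcodes (445.52 and 948.76) and whose mitochondrial UMIs did not exceed 15% (12001 and 9015), with no upper limit and no doublet removal. Lens barcodes had at least 1% Cryaa and Cryab, at most 0.1% each of endothelial, mural and macrophage markers and at most 1% of erythroid markers.

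UMIs were summed per pool and group (12 sums). The test was the quasi-likelihood test of edgeR 4.0.16 (R 4.3.3) after its default filter on low counts, with TMM factors, the pool as a block and Benjamini-Hochberg adjustment at 0.05 over all genes but the 3 that set the order. Same-numbered sums come from the same pool. p-values rest on how differences vary between these 2 pools; cells were not replicates. Genes were named with values in all groups if they passed between low and top group with a log2 fold change of at least 1 in size in the same direction in both pools, or were Dnase2b, Fyco1, Bnip3, Bnip3l, Sqstm1 or ATG8 genes; from each other list, the 2 largest fitted changes each way were named, except for items not reported here. The genes and lists were chosen with earlier results of these data known.

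On simulated counts for low against top group (12370 genes), edgeR found 7 of 50 genes changed 1.5-fold and 28 of 50 changed 2-fold. It found 38 of 50 changed 4-fold and 44 of 50 changed 8-fold, with 4 false calls among the unchanged genes. These counts were drawn from the fitted model, with equal levels in all groups for every gene but those changed. They lack the shift of crystallins between the groups, so they cannot show how scaling affects the calls here. Alternatives were DESeq2 1.42.0, other scalings, no filter, no replicate block, removal of the top 8% of Scrublet scores (scanpy 1.11.5), an upper UMI limit, other group limits, stricter lens barcodes, limits on mitochondrial and cell cycle UMIs, thinning to 3000 UMIs, each pool left out and, chosen after the data were seen, a limit of 0.3% on stress UMIs. Python 3.11.15 with NumPy 2.4.6, SciPy 1.17.1, pandas 2.3.3 and matplotlib 3.10.9 was used. Clusters were not used, and clustering, trajectories and cell communication were not analysed here.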

Additional observations from a re-analysis of the deposited data

How the results depend on the processing

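The scale and the depth of barcodes limit these results, and the top group, with 196 barcodes, is the least precise. Directions depended on the scaling. The summed counts cannot show single cells.

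Without TMM factors, genes of the set numbered 4 higher and 20 lower from low to top, 12 and 10 from low to middle, and 0 and 19 from middle to top; all genes numbered 685 and 9337, 1620 and 8124, and 196 and 6155. Without crystallins in the totals the set numbered 12 and 4 from low to top, 6 lower from low to middle, and 1 and 4 from middle to top. All genes, of 12865 tested in that fit, numbered 1788 and 4881 from low to top and 727 and 1793 from middle to top. Without barcodes above the UMI limit, 10 of the set were higher from low to top and 1 from middle to top; all genes numbered 1720 and 1923, and 570 and 555. Thinned to 3000 UMIs, 8 were higher from low to top, 1 lower from low to middle, and 1 higher and 1 lower from middle to top; all genes numbered 1053 and 1155, 2465 and 2523, and 247 and 277. With the top 5% joined, 2 were lower from low to top and 1 from middle to top, and all genes numbered 4462 and 4576 from low to top. Lower genes numbered 4 from low to middle without a filter, 2 from low to top and 4 from low to middle with the cell cycle limit, and 1 from low to middle with the stress limit, where all genes numbered 2726 and 2717. Fewer UMIs or genes enter several of these fits, and the cause was not otherwise tested.

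Without TMM factors these called genes turned direction from low to top: Bnip3 (-0.14), Ulk2 (-0.22), Atg101 (-0.70), Becn1 (-0.30), Atg9a (-0.31), Atg7 (-0.47), Atg12 (-0.66), Map1lc3a (-0.37), Map1lc3b (-0.48), Gabarap (-0.18), Gabarapl2 (-0.14), Nbr1 (-0.46) and Tax1bp1 (-0.92). From low to middle these were Rb1cc1 (-0.13), Atg9a (-0.15), Atg5 (-0.29), Map1lc3b (-0.23), Sqstm1 (-0.019) and Tax1bp1 (-0.23), and from middle to top Bnip3l (-0.23), Wipi1 (-0.23), Wipi2 (-0.053), Map1lc3b (-0.25), Gabarap (-0.40) and Gabarapl2 (-0.39). Elsewhere, from low to top, Ulk2 (-0.15) and Atg7 (-0.35) turned when thinned, Atg7 with the top 5% joined (-0.0041) and Tax1bp1 without crystallins in the totals (-0.12). From middle to top, Gabarap turned without barcodes above the UMI limit (-0.12) and when thinned (-0.083), and Map1lc3a with the top 5% joined (0.033). The difference in mitochondrial share of all UMIs was -1.98 percentage points without barcodes above the UMI limit and -2.76 to -2.72 with each pool left out. Crystallins stayed in the denominator of that share.

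With no replicate block, genes of the set higher from low to top numbered 18 in place of 19, from low to middle 21 in place of 23 and from middle to top 7, so that leaving out the pairing by pool moved no count by over 1.5 times. DESeq2, the removal of high Scrublet scores, limits within each pool, stricter lens barcodes and the limit on mitochondrial UMIs also kept every count within 1.5 times. With 1 pool left out no degrees of freedom remained for a test; the fold changes of the called genes kept their direction in each pool.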

Other observations

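Barcodes of the lens vessels, kept as a background and not part of the comparisons above, carried the same genes at other levels. Thinned to 2000 UMIs, 53.6% of 483 and 57.0% of 458 vessel barcodes held a UMI of Map1lc3b, against 21.7% of 5335 and 21.9% of 4337 lens barcodes of the low group. For Map1lc3a the shares were 31.3% and 39.3% against 15.5% and 15.9%. Of the 4 mitophagy genes, Bnip3l and Bnip3 had lower shares in vessel barcodes, at 38.5% and 34.9% against 52.6% and 48.3% and at 0.828% and 1.09% against 3.79% and 3.50%. Pink1 had higher shares there, at 12.8% and 12.2% against 4.93% and 4.63%, and for Fundc1 the pools split, at 4.14% and 5.68% against 5.85% and 5.40%. Vessel barcodes had medians of 3471 and 3695.5 UMIs against 6114 and 7984.5, and thinning left out 112 and 50 of them against 65 and 51 lens barcodes. Before thinning the shares for Map1lc3b were 72.3% and 77.8% against 53.8% and 61.3%, and for Bnip3l 58.3% and 60.2% against 89.0% and 90.2%. No test was made of these differences.

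In the top group the same thinning gave Bnip3l in 56.8% of 118 and 46.7% of 75 barcodes and Map1lc3a in 4.24% and 6.67%, on a scale that crystallins share, as they made up 51.8% and 52.1% of the UMIs of that group.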
